A study of Mus musculus with 3 samples.

Results

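Histone genes were described here in ureteric tip cells of the early mouse embryo. A gene was taken when the array annotation gave a probe set its symbol alone and the symbol followed the naming of histone H1, H2A, H2B, H3 or H4 genes; probe sets of 1 gene were averaged. This gave 33 of the 19938 genes measured, carried by 34 probe sets. They were divided by symbol into 24 replication-dependent genes, 4 replacement genes and 5 genes known from testis and germ line. The cells came from Hoxb7-GFP transgenic embryos, carrying Tg(Hoxb7-EGFP)33Cos, of the CD-1 strain at 10.5 days post coitum (Theiler stage 18), with sex given as unknown and no treatment. The transgene places the fluorescent reporter under Hoxb7 control, which is active in nephric duct epithelium and in its outgrowth, the ureteric bud, the epithelium that branches into the collecting system of the kidney. The 3 arrays form 1 group without controls, and each holds the RNA of 1 unpooled bud that was dissected, dissociated with trypsin and sorted by fluorescence. The labels do not say whether the buds came from separate embryos, so they may not be independent. The spread between buds may also be partly technical.

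Histones package DNA into nucleosomes, and a dividing cell must make new histones as it copies its genome. Replication-dependent genes lie in clusters, are used in S phase, and their messages end in a stem-loop in place of a poly(A) tail. Replacement genes are spread over the genome, make polyadenylated messages throughout the cell cycle and supply variants that are exchanged into chromatin without replication. RNA was amplified in 1 round by a whole-transcript kit before hybridization. The recovery of messages without poly(A) in that step was not tested.

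All 33 symbols were found in the RefSeq gene table (GRCm38.p6). Of the members, 23 lie on chromosome 13, where the large histone cluster is, and 5 on chromosome 3, which holds a smaller cluster. On chromosome 3, 4 members are replication-dependent and 1 is the replacement gene H2az1. Places within the clusters were not checked. RefSeq promoters were matched for 29 members. Promoters of 6 of them are printed here because each family has elements of its own, as known from work on these genes. The octamer ATTTGCAT of H2B genes is bound by OCT1, the CCAAT box by NF-Y, GGTCCG is the core of the H4 element bound by HINFP, and AACACA is a box of H1 genes; TATAAA is the TATA box. The 150 bases before the start site are given 5′ to 3′ on the gene's strand, with matches to these 5 motifs on either strand in capitals; neighbouring or overlapping matches run together. H2bc14 (chr13:21721894-21722043, plus strand) and H2bc3 (chr13:23746584-23746733, plus) hold the octamer, and H2bc9 (chr13:23543445-23543594, minus) is an H2B gene without it. H4c4 is at chr13:23581418-23581567 (plus), H1f5 at chr13:21780626-21780775 (minus), and H2az1, of the replacement class, at chr3:137864337-137864486 (plus).
H2bc14: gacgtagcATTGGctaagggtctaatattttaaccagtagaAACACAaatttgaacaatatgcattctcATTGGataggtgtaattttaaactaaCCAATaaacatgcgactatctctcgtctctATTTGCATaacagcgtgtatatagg
H2bc3: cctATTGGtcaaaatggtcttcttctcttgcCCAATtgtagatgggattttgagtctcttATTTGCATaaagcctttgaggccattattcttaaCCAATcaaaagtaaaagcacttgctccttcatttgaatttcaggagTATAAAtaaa
H2bc9: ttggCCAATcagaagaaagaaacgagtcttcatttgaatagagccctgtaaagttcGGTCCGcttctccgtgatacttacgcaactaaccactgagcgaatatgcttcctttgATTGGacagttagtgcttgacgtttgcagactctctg
H4c4: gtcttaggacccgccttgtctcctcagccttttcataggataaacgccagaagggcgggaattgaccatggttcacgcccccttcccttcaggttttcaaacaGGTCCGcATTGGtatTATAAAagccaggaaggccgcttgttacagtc
H1f5: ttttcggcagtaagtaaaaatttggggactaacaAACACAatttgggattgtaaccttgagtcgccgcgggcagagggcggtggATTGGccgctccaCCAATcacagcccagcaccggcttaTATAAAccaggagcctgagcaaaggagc
H2az1: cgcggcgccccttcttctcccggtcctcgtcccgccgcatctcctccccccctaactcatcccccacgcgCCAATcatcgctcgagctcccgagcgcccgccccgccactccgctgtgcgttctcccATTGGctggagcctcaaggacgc

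The octamer stood 25 bases before the start in H2bc14 and 90 bases before it in H2bc3, counted to its first base. In the whole promoter table, the octamer occurred in the 250 bases upstream of 7 of 14 H2B genes (50%) and 6 of 19 H2A genes (31.6%), against 1.81% of 27025 genes with a promoter. Among members it was found in H2bc1, H2bc3, H2bc8, H2bc14 and H2bc18 and in H2ac1, H2ac4 and H2ac8. Some of these have RefSeq promoters that overlap. The full promoters of H2ac8 and H2bc8, which are longer than the 250 bases searched, overlap by 279 bases on opposite strands. Those of H2ac1 and H2bc1 overlap by 220 bases. CCAAT was present in all 19 H2A and all 14 H2B genes of the table, in 3 of 11 H4 genes and in 37.5% of all genes. GGTCCG was present in 8 of 11 H4 genes (72.7%) and 7.69% of all genes, and AACACA in 7 of 10 H1 genes (70%) and 17% of all genes. H2az1, whose printed stretch is rich in G and C, had matches to CCAAT alone. A match describes letters in a window and was not tested as a binding site.

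**Figure D1:**
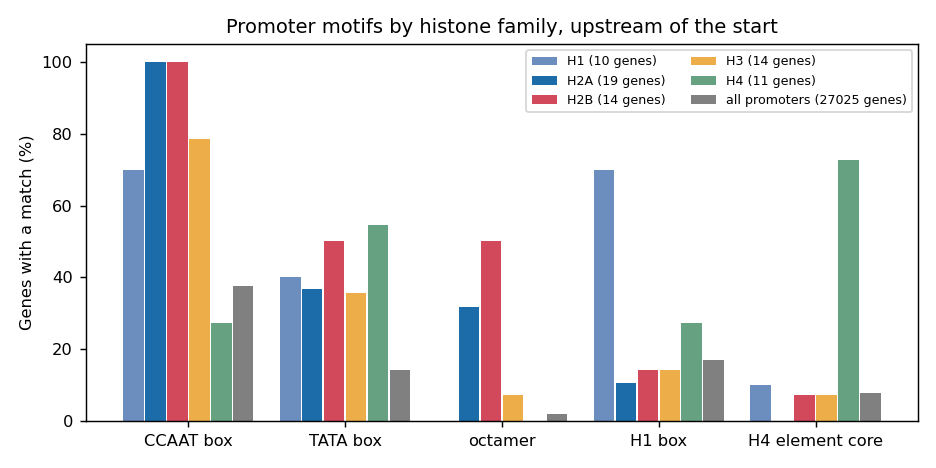
Bars give the percentage of genes with at least 1 match to each motif in the 250 bases upstream of the start, on either strand, for the 5 histone families in the RefSeq promoter table and for all 27025 genes. The octamer reached 50% in H2B genes against 1.81% of all genes, and the H4 element core 72.7% in H4 genes against 7.69%.

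Values are log2 signals, and a gene was called above background when limma placed its mean above the 95th percentile of 1035 olfactory receptor probe sets of the same arrays, at a Benjamini-Hochberg adjusted p under 0.05 over all genes. The background levels were 5.40, 5.45 and 5.41 log2 on arrays 1, 2 and 3. Of the 33 histone genes 22 were above background (66.7%), compared with 53% of all genes. Their median level lay 0.83 log2 over background, and that of all genes 0.22. Replication-dependent genes were above in 16 of 24 (66.7%), replacement genes in 3 of 4 and genes known from testis and germ line in 3 of 5. The median level over background was 0.84 log2 in the replication-dependent class and 2.69 in the replacement class; different probe sets bind with different strength, so these medians do not rank messages by abundance. A single value stood on all 3 arrays for 15 of the 33 genes, as for 51.7% of all genes. Such a value carries no measured spread between buds, and its p-value rests on the background levels and on the spread shared over genes. Other backgrounds moved the counts of histone and of all genes together. At the 90th percentile of the olfactory receptors 25 histone genes were called, against 63.7% of all genes, and at the 99th percentile 16, against 35.3%. With the 95th percentile of vomeronasal receptors the count was 26, against 65% of all genes. There the spread was pooled over genes, and H2bc8 was called (limma, adjusted p = 0.000427) despite an SD of 0.84 log2. With that of 84 beta-defensin and keratin-associated protein probe sets, called the strictest background here, it was 10, of which 8 were replication-dependent, against 21.1%. With genes of a single value left out, 15 of 18 histone genes were above background, against 63.1% of all genes. Dropping the 25% of probe sets with the lowest mean left 29 histone genes, of which 22 were above, against 65%. Without array 1, 2 or 3 the count was 20, 21 and 20 of the 33, against 48.5%, 52.8% and 48.8% of all genes.

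**Figure D2:**
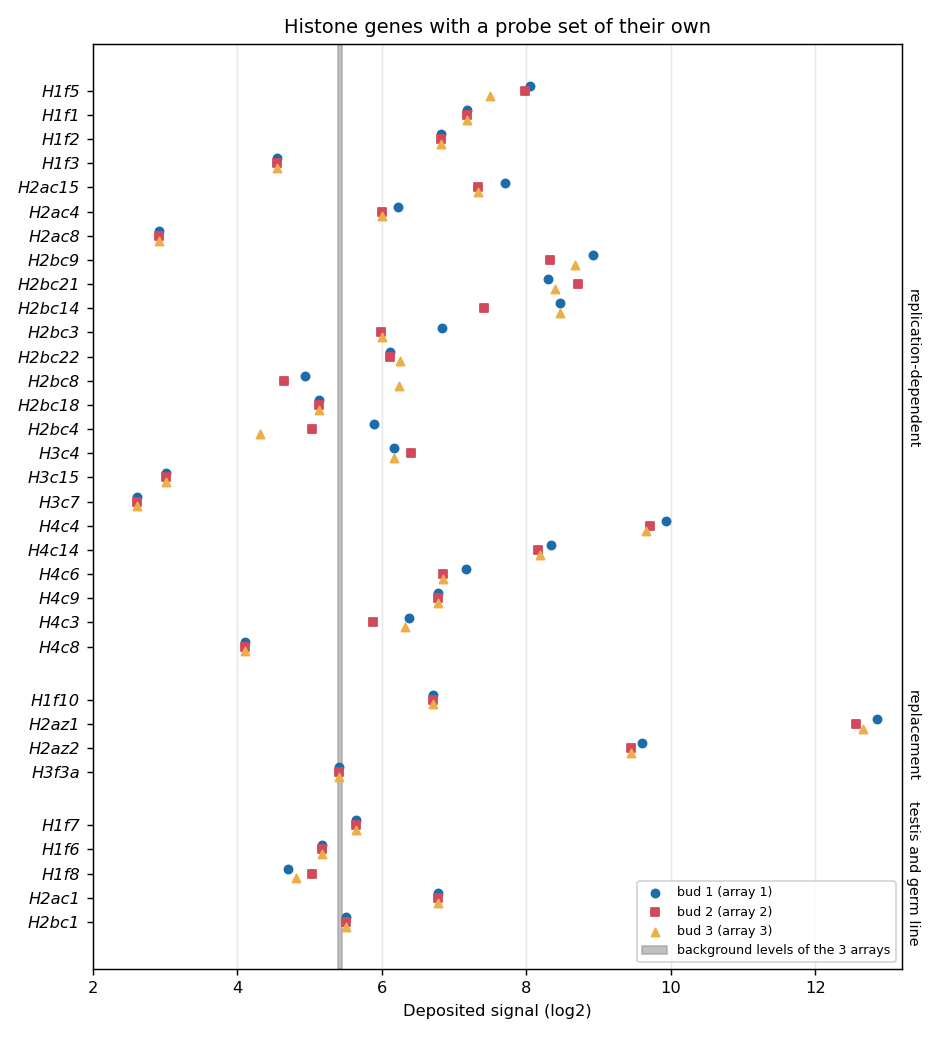
Each row is 1 histone gene, and the 3 symbols are its log2 signal in buds 1, 2 and 3; the grey band spans the background levels of the 3 arrays, 5.40 to 5.45 log2. H2az1 lies between 12.56 and 12.86, and H2bc8 and H2bc4 spread over more than 1 log2 across the band.

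Linker histone H1 binds the DNA between nucleosomes, and 3 of its 4 replication-dependent genes were above background. H1f5 had signals of 8.05, 7.98 and 7.50 log2 on arrays 1, 2 and 3 (7.84 ± 0.30, SD, n = 3), which is 2.42 ± 0.13 (SE) over background (limma, adjusted p = 0.000112). Bud 3 was the low one, and all 3 values lay clear of the background levels. H1f1 and H1f2 were at 7.17 and 6.82 log2, each with a single value on all arrays, 1.75 and 1.40 over background. H1f3, at 4.55 log2 on all arrays, was not above it. The call of H1f2 was lost with the strictest background.

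H2A and H2B form the dimer that flanks the H3-H4 tetramer of the nucleosome. Of 3 replication-dependent H2A genes, H2ac15 had 7.70, 7.33 and 7.33 log2 (7.45 ± 0.22, SD, n = 3) and H2ac4 6.22, 5.997 and 5.997 (6.07 ± 0.13), and both were above background (limma, adjusted p of 9.88e-05 and 0.000966). In both genes bud 1 was the high one, and buds 2 and 3 had the same value. H2ac8, at 2.92 log2 on all arrays, was not above background. H2ac4 lost its call at the 99th percentile and with the strictest background.

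H2B was the family with the most members and with the widest differences between buds; 5 of its 8 replication-dependent genes were above background. For H2bc9 the signals were 8.93, 8.33 and 8.68 log2 (8.64 ± 0.30, SD, n = 3); for H2bc21 they were 8.29, 8.71 and 8.40 (8.47 ± 0.22). Bud 2 was the lowest in H2bc9 and the highest in H2bc21, so these genes did not vary together. H2bc14 had 8.47, 7.41 and 8.47 log2 (8.12 ± 0.61), with bud 2 lower than both others by 1.06 log2, and was above background in every bud (limma, adjusted p = 0.000967). H2bc3, with 6.84, 5.98 and 6.01 log2, was high in bud 1 (limma, adjusted p = 0.0183). H2bc3 lost its call at the 99th percentile (limma, adjusted p = 0.416), with the strictest background and without array 2 (limma, adjusted p = 0.0775). Without array 2 its margin was 1.02 log2, against 0.57 without array 1, where the call was kept. H2bc22 had 6.11, 6.11 and 6.25 log2, 0.74 ± 0.05 (SE) over background (limma, adjusted p = 0.000188); this call too was lost at the 99th percentile and with the strictest background.

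The H2B genes not above background were H2bc8, H2bc18 and H2bc4. H2bc8 had 4.94, 4.65 and 6.23 log2 (5.27 ± 0.84, SD, n = 3), so bud 3 alone exceeded its array's background level. H2bc4 had 5.89, 5.03 and 4.31 log2 (5.08 ± 0.79), and there bud 1 alone exceeded it. H2bc18 was at 5.12 log2 on all arrays. H2bc8, H2bc4 and H2bc14 were the 3 histone genes whose highest and lowest arrays differed by over 1 log2, by 1.59, 1.58 and 1.06; among all genes 2.37% did, and among those that varied 4.91%. All 3 are H2B genes, and without array 3 the count was 1. H2bc8 and H2ac8, whose full promoters overlap, had a range of 1.59 log2 and of 0. Neither was above background, and the single value of H2ac8 carries no measured spread, so the 2 ranges cannot be compared.

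H3 and H4 form the core tetramer. The single-symbol probe sets covered H3 poorly: H3c4, with 6.17, 6.40 and 6.17 log2 (6.25 ± 0.13, SD, n = 3), was above background (limma, adjusted p = 0.000164), while H3c15 and H3c7 stood at 3.01 and 2.61 log2 on all arrays. Of 6 H4 genes 5 were above background. H4c4 had 9.93, 9.71 and 9.65 log2 (9.77 ± 0.15), 4.35 ± 0.07 (SE) over background (limma, adjusted p = 4.08e-06), and H4c14 8.34, 8.16 and 8.19. H4c6 had 7.17, 6.85 and 6.85 log2, H4c9 6.78 on all arrays, and H4c3 6.37, 5.87 and 6.31. Bud 1 was the highest in each of the 4 H4 genes that varied, by at most 0.32 log2 over the next bud. Among all genes that varied it was the highest in 2444 of 9627. H4c8, at 4.10 log2 on all arrays, was not above background. H4c3 lost its call at the 99th percentile (limma, adjusted p = 0.442), and H3c4, H4c3, H4c6 and H4c9 lost theirs with the strictest background.

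Among replacement genes, both genes of H2A.Z, a variant placed next to promoters and enhancers, were above background. H2az1 had signals of 12.86, 12.56 and 12.66 log2 (12.69 ± 0.15, SD, n = 3) as the mean of 2 probe sets, 7.27 ± 0.08 (SE) over background (limma, adjusted p = 1.47e-06). H2az2 had 9.60, 9.45 and 9.45 log2 (9.50 ± 0.09; limma, adjusted p = 2.08e-06). Bud 1 was the highest in both, and the differences between buds stayed under 0.30 log2. H1f10, a linker histone that is not tied to replication, was at 6.71 log2 on all arrays, 1.29 over background, and lost its call with the strictest background. H3f3a, which encodes the replacement H3 placed at active genes, was at 5.41 log2 on all arrays and not above background. That is the value of its 1 single-symbol probe set. On 4 other probe sets, which name H3f3a together with the predicted gene Gm12657, signals were 11.83 to 12.26 log2 on array 1, 11.51 to 11.90 on array 2 and 11.56 to 11.93 on array 3. The probe sets of H3f3a therefore disagreed, and the call of H3f3a rests on which is read; it was also gained at the 90th percentile (limma, adjusted p = 3.40e-05) and with vomeronasal receptors as background.

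H2ac1 and H2bc1 encode the H2A and H2B variants of testis, H1f6 and H1f7 linker histones of male germ cells, and H1f8 that of the oocyte. H2ac1 was at 6.78, H1f7 at 5.64 and H2bc1 at 5.504 log2, each with a single value on all arrays, and all 3 were called above background (limma, adjusted p of 4.39e-06, 0.00109 and 0.0238). The margins were 1.36, 0.22 and 0.08 log2. The calls of H1f7 and H2bc1 were lost at the 99th percentile, with the strictest background, and without array 1 or array 3, and that of H2ac1 with the strictest background. Without array 1 or array 3 the margin of H1f7 was still 0.21 log2. H1f6, at 5.17 log2, and H1f8, with 4.70, 5.03 and 4.82, were not above background. Of 6 germ cell markers, 2 were above background (33.3%), against 53% of all genes. These were Kit and Nanos3, each with a single value on all arrays, while Ddx4, Dazl, Dppa3 and Pou5f1 were not above it.

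Many replication-dependent genes are near-identical in sequence. In all, 32 probe sets named a histone gene together with other genes, and 6 of these were the sets of the replacement genes H3f3a and H3f3b, each paired with a predicted gene. Such sets are not members, since their signal cannot be given to a gene, but they hold most of the H2A, H2B, H3 and H4 genes. The 10 probe sets shared by 12 H3 genes had signals of 7.65 to 8.38 log2 on array 1, 7.15 to 7.63 on array 2 and 7.15 to 7.55 on array 3. Bud 1 was the highest on all 10, by a median of 0.70 log2 over bud 2 and 0.80 over bud 3. The 2 probe sets shared by H2A genes, which also name H2ax and H3c4, had 9.02 and 10.55 log2 on array 1, 8.45 and 9.88 on array 2, and 8.18 and 9.43 on array 3, so bud 1 was again the highest. Array 1 lay at least 0.5 log2 above both other arrays on 9 of the 10 H3 sets and both H2A sets, against 2.47% of 1621 probe sets with several symbols. Among single-symbol members H2bc3 and H2bc4 did so, against 1.99% of all genes.

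The 7 probe sets shared by H2B genes differed from this order. Their signals were 9.63 to 10.26 log2 on array 1, 8.82 to 9.30 on array 2 and 9.63 to 10.16 on array 3, so the values of bud 2 did not overlap those of the other buds. Bud 2 was the lowest on all 7, by a median of 0.98 log2 below bud 1 and 0.84 below bud 3. Array 2 lay at least 0.5 log2 below both other arrays on all 7 sets, against 1.05% of probe sets with several symbols; among members only H2bc14 did so, against 1.06% of genes. The 5 probe sets shared by 11 H4 genes had 9.70 to 10.56 log2 on every array and differed between buds by at most 0.09, with 3 of them at a single value. Highest and lowest arrays differed by over 1 log2 on 1 H2A, 2 H2B and 2 H3 sets, against 3.58% of probe sets with several symbols. Probe sets of a family name largely the same genes (14 or 15 symbols on each H2B set, 19 or 20 on each H2A set), and 2 of the H2B sets had the same values as each other on every array, so their counts are not independent. With the 17 shared sets of a single class averaged into each gene they name, 42 of 50 histone genes were above background, 36 of 41 replication-dependent. The share over all genes was 53.1%, and H3c7, H3c15 and H4c8 were then called. The shared H2A and H2B sets above are not among the 17. Genes named by the same sets hold the same signal, as H3c1, H3c2 and H3c3 at 2.24 log2 over background. This count is therefore not one of separate measurements.

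**Figure D3:**
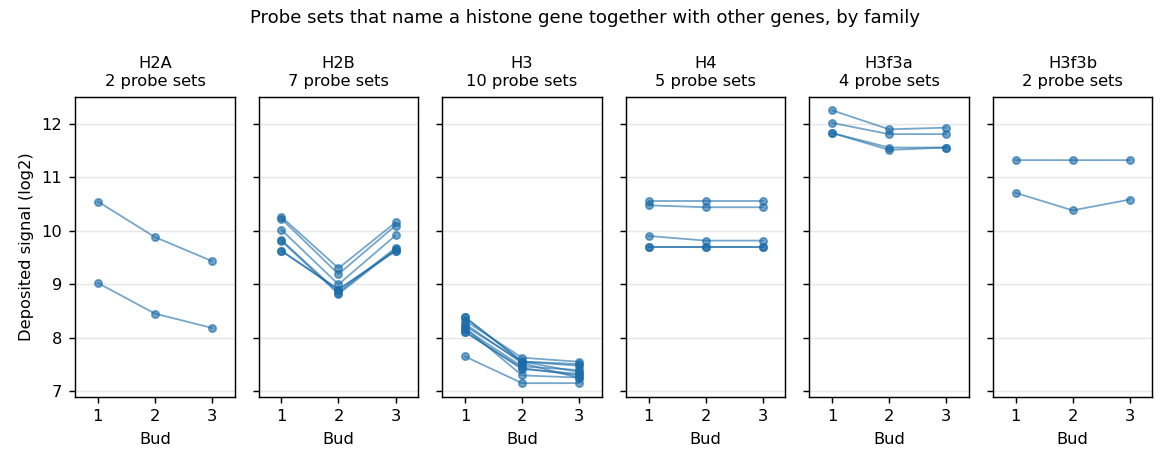
Each line joins the log2 signals of 1 probe set in buds 1, 2 and 3, which have no order, for probe sets naming a histone gene together with other genes, by family. H3 and H2A sets are highest in bud 1, H2B sets are lowest in bud 2 at 8.82 to 9.30, and H4 sets lie level.

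Between buds, the 15 replication-dependent members that varied lay 0.28 log2 higher in bud 1 than in the mean of the other buds, as a median, and 0.11 lower in buds 2 and 3. Over all 9627 genes that varied, the same medians were -0.012, -0.003 and -0.009. Bud 1 was the highest in 11 of the 15, against 2444 of the 9627 genes that varied. Each bud is 1 array, so these differences have no replicate and were not tested. Other gene groups also differed between buds. Genes of S phase lay 0.11 log2 higher in bud 1 over 14 varying members, and the 8 ureteric bud markers that varied lay 0.29 higher in bud 1, 0.10 lower in bud 2 and 0.16 lower in bud 3. The shift of the ureteric bud markers was thus as large as that of the replication-dependent members and ran the same way. All 10 ureteric bud markers were above background, against 53% of all genes. Of the 8 that varied, bud 1 was the highest in 7, against the same 2444 of 9627. Endothelial markers were above background in 7 of 10, against the same 53%, with a summed signal of 1198, 573 and 1776 linear units on arrays 1, 2 and 3, and erythroid markers in 4 of 7 measured, a share near that of all genes, with 979, 307 and 756. Of the 4 erythroid calls, Alas2, Slc4a1 and Epor each had a single value on all arrays, 0.22, 0.41 and 0.09 log2 over background. Bud 2 was the lowest in all 9 endothelial and all 3 erythroid markers that varied, against 2109 of the 9627 genes, and was also low in the shared H2B probe sets. Bud 3 was the highest in 7 of the 9 endothelial markers, against 2302 of the 9627, and bud 1 in the other 2, Cdh5 and Tie1. Cdh5 had 8.22, 5.89 and 8.07 log2, and Hbb-y, which was not called (limma, adjusted p = 0.053), 8.86, 5.48 and 8.52, while Klf1 stood at 4.88 on all arrays. Metanephric mesenchyme markers were above background in 1 of 10, Cited1. The part of these other cells in the histone differences was not tested, and in the RNA of a whole sort more cells of a type and more RNA per cell cannot be told apart.

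**Figure D4:**
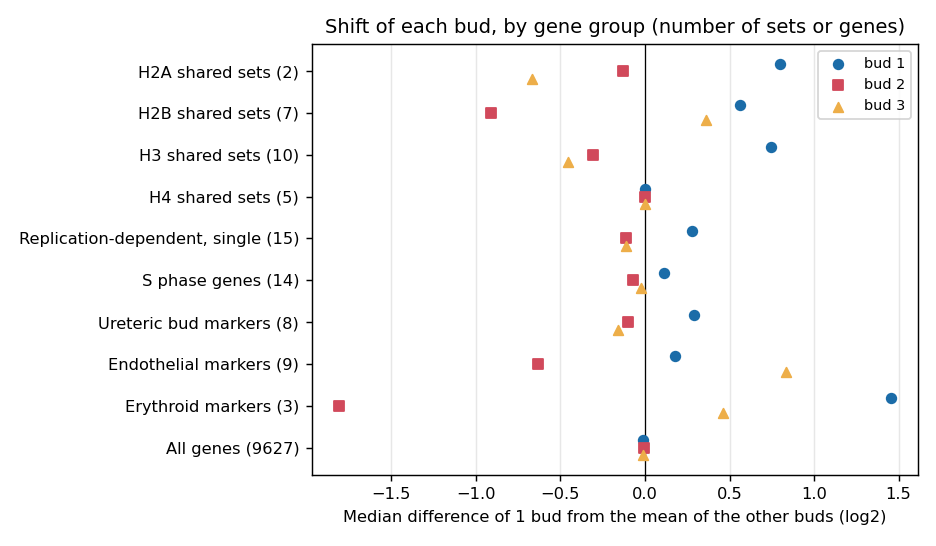
Symbols give, for each bud, the median over a group of its log2 value minus the mean of the other 2 buds; numbers in brackets count probe sets or genes, and gene lists are limited to genes that varied between arrays. H2B shared sets are at -0.91 in bud 2, erythroid markers at -1.81, and all genes near 0.

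Genes listed for the synthesis, trimming and decay of replication-dependent messages were above background in 24 of 27 measured, against 53% of all genes. The list includes regulators such as Yy1, Cdk2, Ccne1 and Ccne2, the decay factors Upf1 and Lsm1, and Ldha as part of a coactivator. The count is thus not one of message processing alone. Pou2f1, the gene of OCT1, was listed but had no value. Slbp, which binds the stem-loop of these messages, had 9.08, 9.23 and 9.11 log2 (9.14 ± 0.08, SD, n = 3). Npat, the coactivator at histone clusters that cyclin E and CDK2 act on, had 5.996, 5.94 and 5.996, and Casp8ap2, which recruits the cleavage factors, 8.72 on all arrays. Lsm10, of the U7 particle that directs the cut, was at 6.51 log2 on all arrays. The members not above background were Mif4gd, a partner of Slbp in translation, at 5.22 log2, E2f1 at 5.44 and Hinfp, whose product binds the H4 element printed above, at 5.00, each with a single value on all arrays. Nfya, Nfyb and Nfyc, which encode the CCAAT-binding factor, were all above background at 6.57, 8.92 and 6.66 log2. Nfya and Nfyc lie below the levels of the strictest background, 6.82 to 6.91 log2. The count of the list was 19 at the 99th percentile and 16 with the strictest background, against 35.3% and 21.1% of all genes.

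Genes listed for histone chaperones, which carry new or exchanged histones to DNA, were above background in 26 of 28 measured, against 53% of all genes. The list also holds genes of other main roles, such as Srcap, Ep400, Hat1, Ipo4 and Mcm2, so it does not count chaperones alone. The count was 24 at the 99th percentile and 20 with the strictest background, against 35.3% and 21.1% of all genes. Chaf1a and Chaf1b, subunits of the assembly factor that follows the replication fork, had 8.46, 8.06 and 8.16 and 7.15, 6.84 and 6.84 log2; bud 1 was the highest in both. Their partners Rbbp4 and Rbbp7 were at 8.19 ± 0.08 and 10.81 ± 0.04 log2 (SD, n = 3). Nasp, which holds soluble H3 and H4, had 11.99, 12.16 and 11.92 log2, and Hira, which deposits replacement H3, 7.16, 7.14 and 7.16. Srcap and Anp32e, which place and remove H2A.Z, were at 8.29 ± 0.04 and 11.33 ± 0.11 log2. Set, at 4.84 log2, and Tonsl, at 4.98, were not above background and had a single value on all arrays.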

How the data were processed

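Array values of 3 unpooled buds were used as deposited by the authors, as 1 log2 value per probe set and array. The software named in the submitters' processing notes is Affymetrix Expression Console; its version, the background correction, the normalization and the genome build are not given in the sources read here, and base 2 was inferred from the range of values. Array medians were 5.47, 5.499 and 5.48 log2. Of 35557 probe sets, 21789 had 1 gene symbol, 1621 several and 12147 none listed; 40.7% held a single value on all arrays (tolerance 1e-06). Single-symbol probe sets were averaged per gene. R 4.3.3 with limma 3.58.1 fitted each gene's mean minus its array's background level, with a one-sided moderated test and Benjamini-Hochberg adjustment over 19938 genes, tested on simulated data first. Precision is limited by having 3 arrays.

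The members, classes and lists were chosen with earlier results of these data known. Named genes were all replacement and germ line members, the highest, median and lowest of each family, members not above background or with a range over 1 log2, and the first 4 and those not above background of the other lists; the remaining members and other listed genes were named after their values were seen. Promoters came from RefSeq (GRCm38.p6) and were searched with Python. Alternatives were the 90th and 99th percentile, vomeronasal receptors or a set of beta-defensins and keratin-associated proteins (the strictest) for background, quantile normalization, the probe set with the highest mean, shared probe sets, identical genes or the lowest 25% left out, and each array left out. Patterns of at least 0.5 log2 on shared probe sets were chosen after seeing the data.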

Additional observations from a re-analysis of the deposited data

How the results depend on the processing

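The count of histone genes above background, 22, was 10 with the strictest background, that of beta-defensins and keratin-associated proteins, and 42 with shared probe sets included. The replication-dependent count of 16 was 8 and 36 in the same settings. The share over all genes was 53% beside the first counts, 21.1% with the strictest background and 53.1% with shared probe sets. The shared sets, an alternative of which the split by family was chosen after seeing the data, raised the histone genes tested from 33 to 50. Many of the added genes repeat the signal of the same sets, so they are not separate measurements. The count over all genes was 7034 at the 99th percentile, 4210 with the strictest background, and 6078 with identical genes left out, where fewer genes were tested. In that last setting 15 genes of the message list and 16 of the chaperone list were left, all called, against 63.1% of all genes. The median level over background was 1.22 (90th percentile), 0.20 (99th), 1.40 (vomeronasal receptors), -0.60 (strictest), 2.24 (shared probe sets) and 1.54 log2 (identical genes left out) for replication-dependent genes. For replacement genes it was 3.07, 2.04, 3.24 and 1.24 log2 with the 4 other backgrounds and 5.68 with identical genes left out. The median shift of replication-dependent genes on array 1 was 0 over all 24 members and 0.28 log2 over those that varied. The count of histone genes with a range over 1 log2 was 1 to 2 with an array left out, against 3. Among histone genes, adjusted p followed the margin over background alone without array 1, without array 3 and with vomeronasal receptors. The spread was thus pooled over genes in those fits, but not without array 2. Calls lost or gained in these settings therefore partly reflect how the spread was modelled. Of the values with an alternative that answer a comparison, 97 stayed within their limits and 22 moved. No paired analysis was possible because the arrays form 1 group.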

Other observations

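Histone genes whose symbols fall outside the naming used above were also measured, and were chosen after their values were seen. H2ax, which is phosphorylated at DNA breaks, was at 9.22 log2 on all arrays, and H2aj had 8.54, 8.17 and 7.98 log2 on arrays 1, 2 and 3; both were above background (limma, adjusted p of 7.22e-07 and 7.26e-05). The macroH2A genes Macroh2a1 and Macroh2a2 were above background at 8.61 ± 0.08 and 10.39 ± 0.04 log2 (SD, n = 3), while Macroh2a3 was not, at 5.39 ± 0.12. Cenpa, the H3 variant of centromeres, had 8.32, 8.32 and 8.90 log2, with bud 3 the high one. H2aw, H2bu2 and H4f16 were above background at 7.66, 6.73 and 6.40 log2. Of testis variants of H2A, H2ab1 was not above background at 5.17 log2, and H2al2a was called at 5.73, with a margin of 0.31 log2.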
